A study of Mus musculus with 13 samples.

Results

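MERVL is an endogenous retrovirus of the mouse, and the MT2 sequences are the long terminal repeats (LTRs) of MERVL and of older relatives. The elements described here are all those whose name starts with MERVL or MT2 and that had any signal in strand-specific RNA sequencing of mouse tumor cell lines. The rule matched 10 repeat consensus sequences, and all 10 had signal, out of 889 elements analysed (536 repeats and 353 piRNA loci). They are the internal sequences MERVL and MERVL_2A, the LTR entry MERVL_LTR, and the MT2 entries MT2B2_LTR, MT2_Rat2, MT2C, MT2B, MT2_Rat1, MT2A and MT2B1. Each strand of an element was measured as 1 feature, which gave 20 features.

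The study compared cells with and without Tdg, which encodes thymine DNA glycosylase, in the presence and absence of Trp53, which encodes p53. The B16 melanoma line supplied 8 libraries: Tdg Trp53 double knockout (DKO), Trp53 knockout (Trp53 KO), Tdg knockout (Tdg KO) and wild type (WT), 2 each. The KP line, labelled LUAD (lung adenocarcinoma), supplied 3 Tdg KO and 2 WT libraries. All cells grew in the same medium without treatment. The labels give neither clones nor separate cultures nor any further allele of either line, so the p-values measure only the spread between these libraries. The tables hold repeats and piRNA loci and no genes, so the loss of Tdg and Trp53 and the identity of the cells were not checked here.

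MERVL belongs to the class III endogenous retroviruses, which resemble the ERVL family of other mammals. Its LTR, MT2, is a promoter known for its brief activity in the early cleavage mouse embryo, where the transcription factor Dux activates it, and in rare embryonic stem cells with a similar expression program. In most other cells these copies are held silent by repressive chromatin. TDG removes thymine and oxidised forms of 5-methylcytosine from DNA and so takes part in DNA demethylation. MT2A, MT2B and MT2C are LTRs of older class III elements, and the MT2_Rat entries are consensus sequences named for the rat, to which reads of related mouse copies can be assigned.

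The deposited value is the mean read coverage per base of an element, so it can be compared between elements of different length. No scaling for library size is visible in it, and the number of reads per library is not known. A library's general level was therefore described by its median ratio to the average library of its table: 1.76 and 1.37 in DKO, 0.614 and 0.522 in Trp53 KO, 0.863 and 0.646 in Tdg KO, and 0.688 and 0.935 in B16 WT. In KP this factor was 0.894, 1.06 and 1.34 in Tdg KO and 0.597 and 0.746 in WT. The 7SL consensus, a small cytoplasmic RNA, dominated the tables, and its sense coverage reached 1198220 in DKO library 1, against at most 592693 in other B16 libraries, and 3316360 in KP Tdg KO library 1, against at most 344067 in other KP libraries. How the member calls changed without these libraries is described below. Related consensus sequences can hold the same reads, so the members are not separate measurements of each other.

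Coverage per base in B16 was highest on LTR entries. Summed over both strands and averaged over the 8 B16 libraries, coverage was 75.3 for MT2B2_LTR, 59.7 for MT2_Rat2 and 45.4 for MERVL_LTR. The internal sequences followed, with 14.0 for MERVL and 8.96 for MERVL_2A, the entry of the internal part named for rodents in general. MT2C (7.09), MT2B (5.12), MT2_Rat1 (1.35), MT2A (0.797) and MT2B1 (0.125) made up the rest. MT2B2_LTR was above MT2_Rat2, MERVL_LTR above MERVL, MERVL above MERVL_2A, and MT2B above MT2_Rat1 in 8 of 8 libraries. MT2_Rat2 was above MERVL_LTR, MERVL_2A above MT2C, and MT2C above MT2B in 6 of 8 libraries, and the order below MT2_Rat1 held in 4 of 8 or fewer.

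The lengths implied by the steps of the values put these levels in terms of fragments. MERVL had a length of 5485 bases, MERVL_2A of 5761, and the LTR entries with a resolved length 372 to 600 bases. With about 297 covered bases per fragment, sense coverage of MERVL corresponded to 80.3 to 240.3 fragments per B16 library, and that of MT2B2_LTR to 25.1 to 91.2. The internal sequences are far longer, so in sense their fragments were not fewer than those of MT2B2_LTR. The median over B16 libraries in sense was 159.7 for MERVL and 99.4 for MERVL_2A, against 52.6 for MT2B2_LTR. In antisense it was 86.7 for MERVL and 60.2 for MERVL_2A, against 87.6 for MT2B2_LTR. MT2_Rat1 in sense never exceeded 6.27 fragments, MT2A in antisense 3.02, and MT2B1 had signal in only 2 libraries, so that the smallest members rest on single fragments. MT2A and MT2B1 had no sense coverage in any of the 13 libraries, which allows up to 3 fragments per library. These fragment numbers cover counting error only.

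In B16 cells without Trp53, further loss of Tdg came with higher deposited coverage of the members, as of most other features. Among the LTRs, MT2B2_LTR in sense had a coverage of 39.5 and 46.4 in DKO libraries, against 12.8 and 19.0 in Trp53 KO libraries. Both DKO values lay above both Trp53 KO values, and the log2 change of coverage plus 0.1 was 1.45 ± 0.38 (standard error, n = 2 each, limma adjusted p = 0.034). MERVL_LTR, the promoter-bearing end of MERVL, had an antisense coverage of 49.0 and 35.1 in DKO and of 16.2 and 5.22 in Trp53 KO (log2 change 2.16 ± 0.64, limma adjusted p = 0.046). Without Trp53 KO library 2, the lower one, this change was 1.35. Its sense coverage was 40.0 in each DKO library, against 9.60 and 16.8 in Trp53 KO libraries. The groups were again apart, but the sense change of 1.65 ± 0.54 did not pass (limma adjusted p = 0.059).

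The internal sequence of MERVL was also higher in DKO than in Trp53 KO, and its antisense strand passed. MERVL in antisense had a coverage of 8.57 and 8.50 in DKO and of 3.05 and 3.65 in Trp53 KO, a log2 change of 1.33 ± 0.40 (limma adjusted p = 0.049). MERVL in sense, the strand that carries the gag and pol reading frames, had a coverage of 13.0 and 10.8 in DKO and of 6.16 and 4.35 in Trp53 KO. Its log2 change of 1.18 ± 0.36 fell just short of the threshold (limma adjusted p = 0.0502). MERVL_2A had 8.15 and 5.94 in sense in DKO, against 4.27 and 2.54 in Trp53 KO, and 7.04 and 6.09 in antisense in DKO, against 2.20 and 3.06 in Trp53 KO. No MERVL_2A library of DKO lay below one of Trp53 KO, and neither strand passed.

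MT2_Rat1 in sense was the only other member feature to pass in DKO against Trp53 KO. It had a coverage of 3.79 and 0.611 in DKO and of 0 in both Trp53 KO libraries (limma adjusted p = 0.021). Against a floor of 3 fragments per library its mean was at least 1.21-fold higher in DKO. The DKO coverage corresponds to 6.27 fragments in library 1 and about 1 in library 2, so this call rests on very few reads. It was also at 0 in both Tdg KO and both WT libraries, so it passed the filter on low coverage only through the DKO libraries, and its call is no support for a difference.

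The other MT2 entries were higher in DKO without passing. MT2C had the largest fitted change: its antisense coverage was 16.3 and 9.76 in DKO, against 0 and 0.581 in Trp53 KO (log2 change 5.61 ± 1.74, limma adjusted p = 0.051). In sense MT2C had 4.88 and 5.42 in DKO and 0.806 and 0.798 in Trp53 KO (log2 change 2.54 ± 0.79, limma adjusted p = 0.051). In Trp53 KO libraries MT2C had 0 and 0.73 fragments in antisense and 1.01 and 1.00 in sense. These lie under the floor of 3 fragments, so the size of both changes is not well measured. MT2B had 4.55 and 1.97 in sense in DKO, against 0.500 and 0.992 in Trp53 KO, and 8.71 and 5.48 in antisense in DKO, against 0 and 2.99 in Trp53 KO. The log2 changes of MT2B were 1.94 ± 0.84 in sense and 3.66 ± 1.48 in antisense, the second of them 1.18 without Trp53 KO library 1 and 6.13 without Trp53 KO library 2. The best-covered antisense features had changes near 1 or below: MT2B2_LTR had 62.4 and 67.3 in DKO and 30.4 and 42.5 in Trp53 KO, a log2 change of 0.85 ± 0.29 (limma adjusted p = 0.063). MT2_Rat2 in antisense had 59.6 and 65.8 in DKO and 25.0 and 35.0 in Trp53 KO (1.08 ± 0.39, limma adjusted p = 0.074). In sense it had 22.1 and 24.2 in DKO and 16.9 and 18.4 in Trp53 KO (0.39 ± 0.47, limma adjusted p = 0.49).

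**Figure D1:**
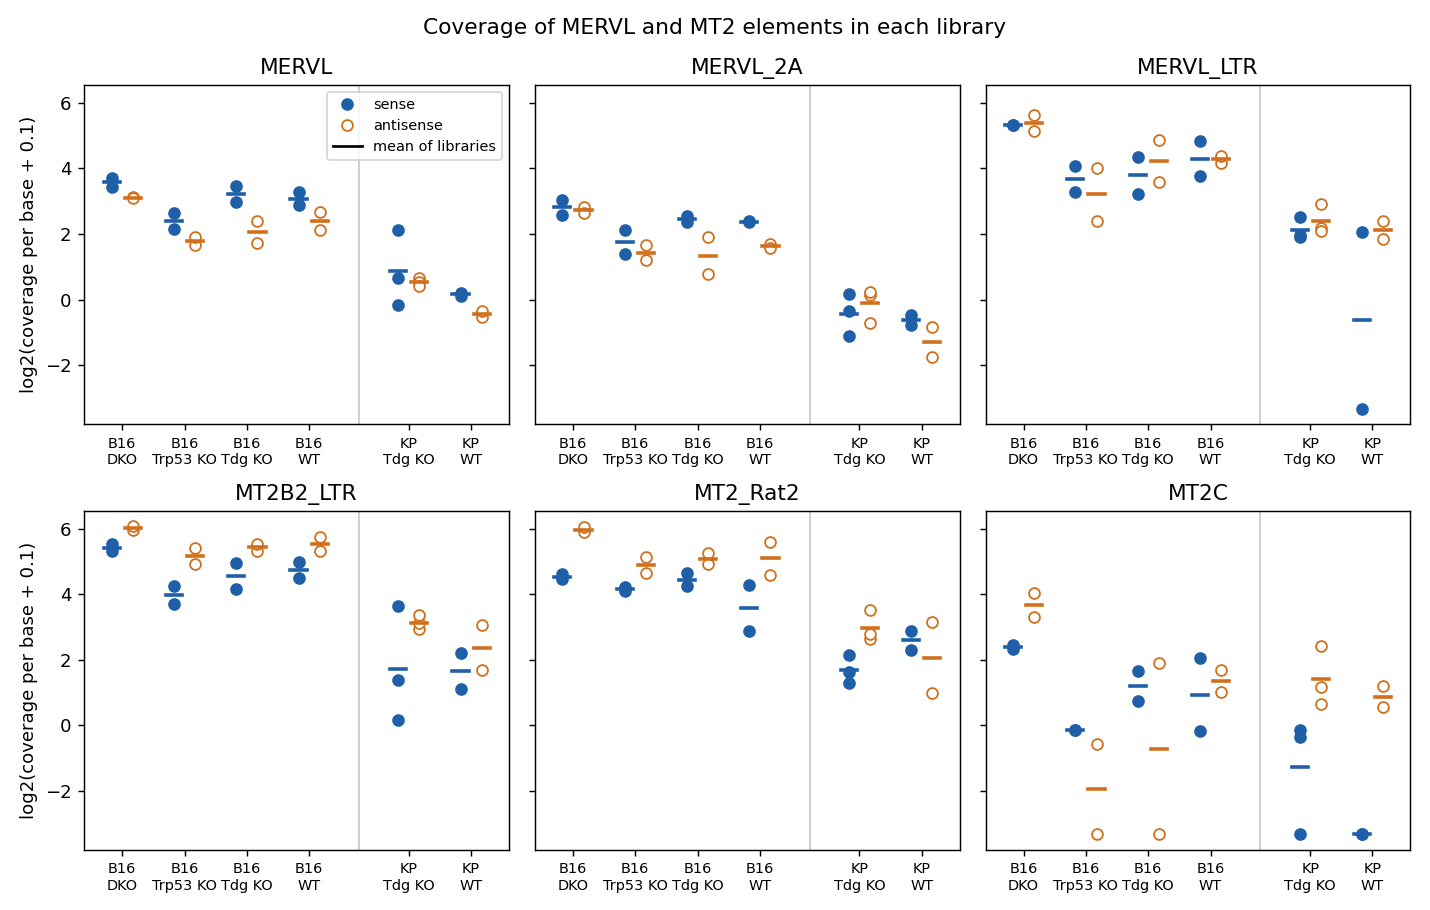
Coverage per base of the 6 best-covered members, as log2 of coverage plus 0.1, by group. Each point is a library, filled for sense and open for antisense, and each line is the mean of the points. DKO libraries of B16 sit highest for most features, in B16 MERVL and MERVL_2A lie below MERVL_LTR, MT2B2_LTR and MT2_Rat2 in most libraries, and KP libraries lie below B16 libraries for most features.

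The members rose no more often than other features in this comparison. Of the 18 member features that passed the filter on low coverage in B16, 4 rose, 0 fell and 14 did not pass, or 22.2% called with MT2_Rat1 counted, while 31.1% of all 1246 features were called and 29.5% rose. All 18 had a fitted change above 0, with a median of 1.39, against 1.67 over all features (1.33 and 1.43 without features at 0 in a whole group). In 16 of 18 member features, with MT2_Rat1 in sense counted, every DKO library lay above every Trp53 KO library. This was so for 68.9% of all features. Among other class III elements, 25 of 47 features of the mammalian apparent LTR retrotransposons (MaLR, which include the ORR1 and MT families) rose, with a median of 1.83. Of the remaining class III features, 6 of 25 rose, with a median of 2.05.

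Most of these calls were lost when libraries were scaled to a common level. After median-ratio scaling 1 member feature passed, where 6.18% of all features rose: MT2_Rat1 in sense, which only its DKO coverage had brought past the filter. The other 3 calls were lost, and the members' median log2 change was 0.14, against 0.60 over all features. MaLR features then rose in 3 of 47 cases and other class III features in 1 of 25, with medians of 0.84 and 1.24. The log2 change of MT2B2_LTR in sense was then 0.00069 ± 0.36 and that of MERVL_LTR in antisense 0.71 ± 0.51, while MERVL was below 0 on both strands, at −0.26 ± 0.27 in sense and −0.10 ± 0.35 in antisense. Median centring and quantile normalization left 0 member features passing, where 2.09% and 3.05% of all features rose. The members' medians were −0.66 and −0.13, against −0.38 and −0.10 over all features. By limma, 6 and 2 of the 18 member features then had an unadjusted p under 0.05, against 421 and 326 of all 1246. Of the MaLR features 1 rose under each of these 2 scalings, with medians of −0.22 and 0.42, and of the other class III features 0 rose. The count as deposited also rested on single libraries: it was lower without any 1 of the Trp53 KO or DKO libraries. It was 0 when only DKO and Trp53 KO entered the fit, and 1 when the piRNA loci were left out. Calls over all features in these fits are not given here, so these losses do not set the members apart.

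**Figure D2:**
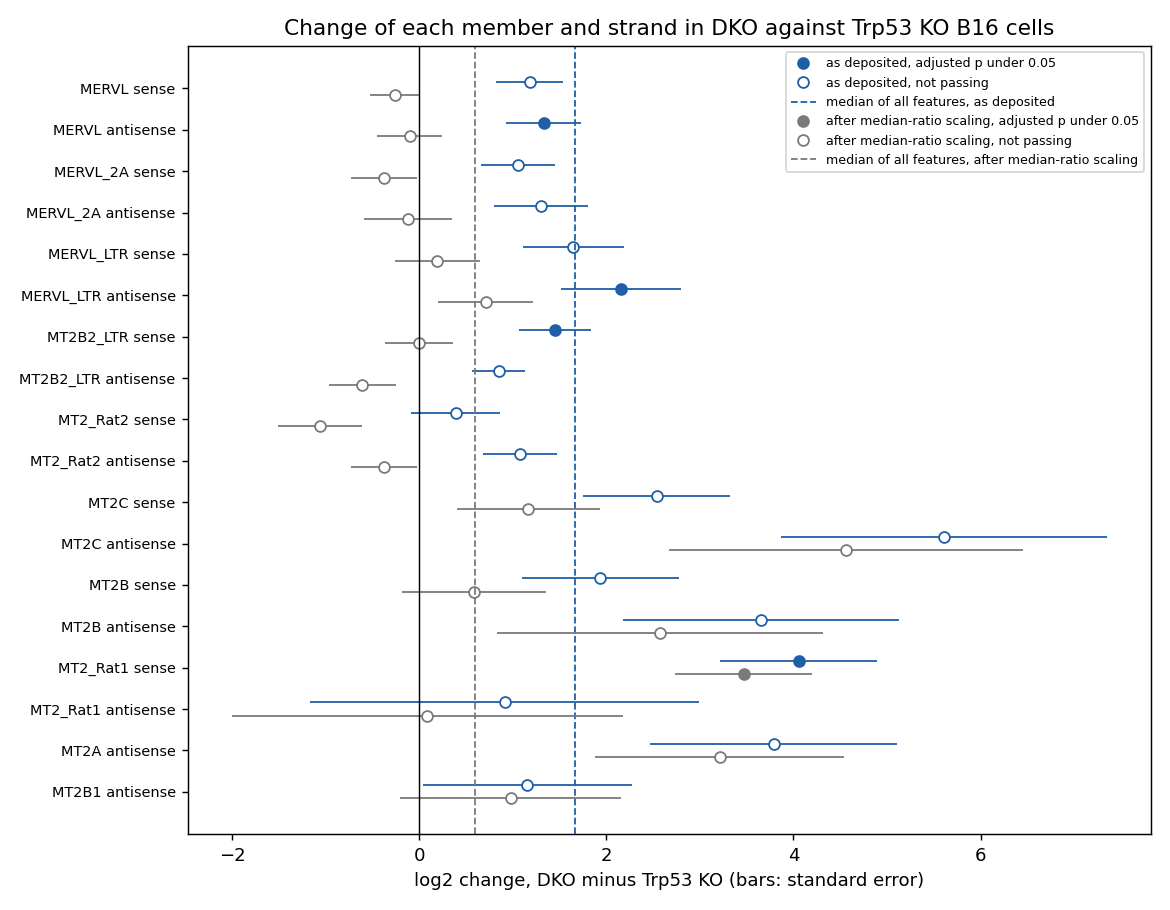
Log2 change of each member feature, DKO minus Trp53 KO in B16, as deposited (blue) and after median-ratio scaling (grey), with standard errors. Filled points have an adjusted p under 0.05, and dashed lines mark the median over all 1246 features (1.67 and 0.60). The blue points all lie above 0, and 11 of the 18 grey points do.

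A share of coverage within each library does not depend on the library's size. Coverage per base was summed over elements without regard to their length, so these shares are not shares of fragments. The members took 6.13% and 9.22% of all class III coverage in DKO and 7.37% and 8.83% in Trp53 KO. In Tdg KO they took 8.39% and 8.57%, and in B16 WT 7.28% and 8.94%. DKO libraries held both the lowest and the highest value, and DKO overlapped with Trp53 KO (7.67% ± 2.19 and 8.10% ± 1.03, SD, n = 2 each, two-sided exact permutation p = 1.000). The members' share of all repeat coverage outside 7SL was 0.749% and 1.12% in DKO, against 0.464% and 0.764% in Trp53 KO. The lower DKO value lay just under the higher Trp53 KO value (two-sided exact permutation p = 0.667, where 2 against 2 libraries allow no p below 0.333).

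In DKO against Tdg KO cells the members were again mostly higher, with a single call. The only member feature that passed was MT2B in sense, 1 of 18, while 3.13% of all features were called. MT2B in sense had a coverage of 4.55 and 1.97 in DKO and of 0 in both Tdg KO libraries, at least 2.19-fold higher against a floor of 3 fragments per library (limma adjusted p = 0.043). MERVL_LTR in sense had 40.0 in each DKO library, against 20.5 and 9.31 in Tdg KO (log2 change 1.53 ± 0.54, limma adjusted p = 0.11). MERVL in sense overlapped, with 13.0 and 10.8 in DKO and 10.8 and 7.73 in Tdg KO, where the lower DKO value lay just under the higher Tdg KO value. The members' median was 0.97, against 1.14 over all features. With median-ratio scaling it was 0.054, against 0.22. With median centring it was −0.53, against −0.36, and with quantile normalization −0.12, against −0.20. Of the members 13 of 18, with MT2_Rat1 in sense counted, had every DKO library above every Tdg KO library. This was so for 62.1% of all features. The MT2B call was lost under each of the other scalings, without the piRNA loci, and without any 1 of the WT, Trp53 KO or Tdg KO libraries. The count was unchanged without DKO library 1 and higher without DKO library 2. Calls over all features in the fits without 1 library are not given here.

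Against WT, 1 of the 18 member features had an unadjusted p under 0.05 by limma in DKO cells, as had 371 of all 1246. It was MT2_Rat1 in sense, which passed the filter only through the DKO libraries and so is no support for a difference. After adjustment none of the 18 passed, while 4.17% of all features were called. The fitted changes were all above 0, with a median of 0.99, against 1.09 over all features. The members' median was 0.036 after median-ratio scaling (10 of 18 above 0), against 0.29 over all features (702 of 1246). After median centring it was −0.39 (5 of 18), against −0.28 (546 of 1246). After quantile normalization it was −0.14 (7 of 18), against −0.14 (554 of 1246). MT2B2_LTR in sense had 39.5 and 46.4 in DKO and 22.6 and 31.2 in WT (log2 change 0.69 ± 0.38, limma adjusted p = 0.28). MERVL_LTR in sense had 40.0 in each DKO library and 13.6 and 28.2 in WT (log2 change 1.02 ± 0.54, limma adjusted p = 0.26). In 13 of 18 member features, MT2_Rat1 in sense among them, every DKO library lay above every WT library, against 54.7% of all features. The count of members called was higher without DKO library 1 and without DKO library 2, but calls over all features in these fits are not given here. Comparisons of DKO with Trp53 KO, Tdg KO and WT share the DKO libraries.

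Loss of Tdg in cells with intact Trp53 gave no call among the members. MT2B2_LTR in sense had a coverage of 30.9 and 17.7 in Tdg KO and of 22.6 and 31.2 in WT (log2 change −0.18 ± 0.38, limma adjusted p = 1.00). MERVL in sense had 10.8 and 7.73 in Tdg KO and 7.31 and 9.56 in WT (log2 change 0.13 ± 0.36, limma adjusted p = 1.00). In both, the groups overlapped. Of the 18 member features 0 passed and the median was −0.080, while 0% of all features were called and their median was −0.050. By limma 1 member feature had an unadjusted p under 0.05, as had 42 of all 1246.

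Loss of Trp53 in cells with intact Tdg gave lower values that did not pass. MERVL in sense had 6.16 and 4.35 in Trp53 KO and 7.31 and 9.56 in WT (log2 change −0.68 ± 0.36, limma adjusted p = 0.70). MT2B2_LTR in sense had 12.8 and 19.0 in Trp53 KO and 22.6 and 31.2 in WT (−0.77 ± 0.38, limma adjusted p = 0.70). In 6 of 18 member features every Trp53 KO library lay below every WT library, while this was so for 35.2% of all features. By limma 0 members passed, while 0% of all features were called. An unadjusted p under 0.05 was reached by 0 members and by 81 of all 1246 features. The members' median was −0.62, against −0.41 over all features. Scaling took most of this away: with median-ratio scaling the members' median was −0.13, against 0 over all features. With median centring it was 0.057 (10 of 18 above 0), against 0.26 (841 of 1246). With quantile normalization it was −0.063, against 0.14. MERVL in sense was then at −0.19, −0.0030 and −0.20, and MT2B2_LTR in sense at −0.27, −0.089 and −0.34.

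Whether Tdg loss acted differently in the 2 Trp53 backgrounds was tested by limma. An unadjusted p under 0.05 was reached by 7 of 18 member features and by 437 of all 1246. MT2_Rat1 in sense, at 0 in every B16 library outside DKO, was among the 7 and is no support for a difference. After adjustment 0 member features and 0% of all features were called. The interaction was 1.64 ± 0.54 for MT2B2_LTR in sense (limma adjusted p = 0.092) and 7.69 ± 2.46 for MT2C in antisense (limma adjusted p = 0.088). MT2C in antisense was at 0 in Trp53 KO library 1 and in Tdg KO library 2, so the size of its interaction depends on the added 0.1. The count of members called was higher without either DKO library, but calls over all features in those fits are not given here. The median interaction was 1.64 over the members and 1.66 over all features. With median-ratio scaling these medians were 0.36 and 0.44, with median centring −0.53 and −0.52, and with quantile normalization 0.053 and −0.17.

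KP cells had lower coverage of the members than B16 cells in separately made tables whose depths are not known, so these levels are given as a description. In WT cells MT2B2_LTR in sense averaged 26.9 in B16 and 3.28 in KP, an 8.19-fold difference. MERVL in sense was 8.26-fold and MERVL_LTR in sense 10.3-fold higher in B16, but MT2_Rat2 in sense only 2.20-fold. The median over 12 member features was 8.15-fold, against 6.90-fold over 487 repeat features. The order of levels in KP was led by MT2B2_LTR (12.0) and MT2_Rat2 (11.3), averaged over the 5 libraries, but MT2B2_LTR was above MT2_Rat2 in only 2 of 5. MERVL_LTR (8.36) lay above MERVL (2.78) in 5 of 5 libraries.

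In KP, no member feature passed between Tdg KO and WT cells. Of the 17 that passed the filter, 0 had an unadjusted p under 0.05 by limma, against 48 of all 984 features. After adjustment 0 of the 17 and 0% of all features were called. The count was also 0 without any 1 of the KP libraries, Tdg KO library 1 among them. MERVL in sense had a coverage of 0.792, 1.48 and 4.28 in Tdg KO and of 1.06 and 0.985 in WT (log2 change 0.71 ± 0.84, n = 3 and 2, limma adjusted p = 0.78). Library 3 of Tdg KO was the high one, and library 1 lay below both WT libraries. MT2B2_LTR in sense had 1.02, 2.51 and 12.5 in Tdg KO and 2.04 and 4.53 in WT, again with Tdg KO library 3 highest and library 1 lowest. The 2 features whose Tdg KO libraries all lay above WT, where 19.2% of all features did so, were the antisense strands of MERVL and MERVL_2A. MERVL had 1.48, 1.34 and 1.24 in Tdg KO and 0.592 and 0.695 in WT. MERVL_2A had 1.01, 1.08 and 0.506 in Tdg KO and 0.199 and 0.456 in WT (log2 change 1.18 ± 0.75, limma adjusted p = 0.78). MT2_Rat2 in sense went the other way, with 2.36, 4.29 and 3.01 in Tdg KO and 7.28 and 4.86 in WT. The members' median change was 0.77, against 0.75 over all features. Their share of class III coverage was 5.26%, 4.58% and 7.25% in Tdg KO and 4.13% and 6.72% in WT, with overlap. The smallest p that 3 against 2 libraries allow is 0.1.

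Strand use differed among the members. The members more covered in sense in every B16 library were 1 of 10, and those more covered in antisense in every one were 2 of 10. These shares were 9.62% and 27.6% of the 468 repeats with a mean coverage of at least 0.1 on either strand in B16. The members' counts were thus near the background. MERVL was more covered in sense than in antisense in 8 of 8 B16 libraries, with 62.1% sense over all of them. MERVL_2A was more sense in 6 of 8. The LTR entries MT2B2_LTR (36.5% sense) and MT2_Rat2 (31.8% sense) were more covered in antisense in 8 of 8 libraries. MERVL_LTR was about even, at 49.0% sense, with 3 libraries more sense and 5 more antisense. In KP, MERVL was more sense in 4 of 5 libraries, and MT2B2_LTR, MT2_Rat2 and MERVL_LTR more antisense in 4 of 5. MT2C was more antisense in 5 of 5 KP libraries but in only 4 of 8 B16 libraries.

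No change of the strand balance with genotype passed. Coverage per base was summed over the members without regard to their length. A short LTR entry thus weighs more in the sum than it does by fragments. The sense share of this sum was 38.6% and 40.4% in DKO and 39.9% and 40.1% in Trp53 KO. In Tdg KO it was 41.5% and 41.0%, and in B16 WT 37.1% and 41.5%. In KP it was 28.4%, 35.7% and 41.2% in Tdg KO and 45.2% and 40.2% in WT. In a limma fit of log2 sense over antisense coverage, 0 members passed in any comparison. Over all 730 elements in B16, 10 passed in DKO against Trp53 KO and 0 in each other comparison, and in KP 0 of 581 passed. Passing was thus rare over the whole table. The members' smallest limma adjusted p in DKO against Trp53 KO was 0.24, with 1 member at an unadjusted p under 0.05.

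**Figure D3:**
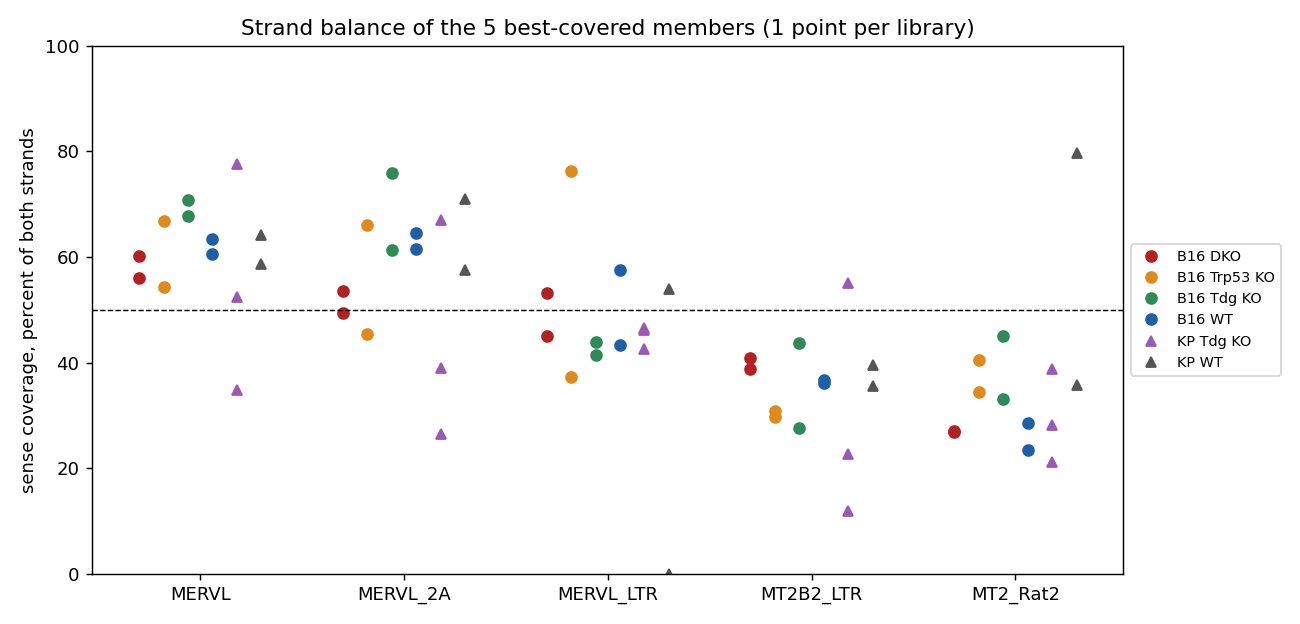
Share of coverage in sense for the 5 best-covered members, 1 point per library, with circles for B16 and triangles for KP. The dashed line marks 50%. MERVL lies above the line and MT2B2_LTR and MT2_Rat2 below it in all 8 B16 libraries, and MERVL_LTR lies on both sides. The KP triangles scatter more widely.

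The ratio of LTR to internal coverage was chosen after the values were seen. Over both strands, coverage of MERVL_LTR divided by that of MERVL was 4.12 and 3.90 in DKO and 2.80 and 2.75 in Trp53 KO. It was 3.08 and 1.94 in Tdg KO and 2.73 and 3.11 in B16 WT. Both DKO libraries thus lay above all 6 other B16 libraries, although each comparison reached only the smallest p that the design allows (two-sided exact permutation p = 0.333 against Trp53 KO, against Tdg KO and against WT). On single strands the gap was not clear of Trp53 KO: in sense the ratio was 3.07 and 3.71 in DKO and 1.56 and 3.86 in Trp53 KO. In antisense it was 5.71 and 4.13 in DKO and overlapped with every other B16 group, at 5.31 and 1.43 in Trp53 KO, 5.59 and 3.73 in Tdg KO and 4.24 and 3.35 in WT (two-sided exact permutation p = 0.667 in each comparison). In KP the ratio was 3.62, 2.78 and 2.37 in Tdg KO and 3.12 and 4.49 in WT, with overlap.

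**Figure D4:**
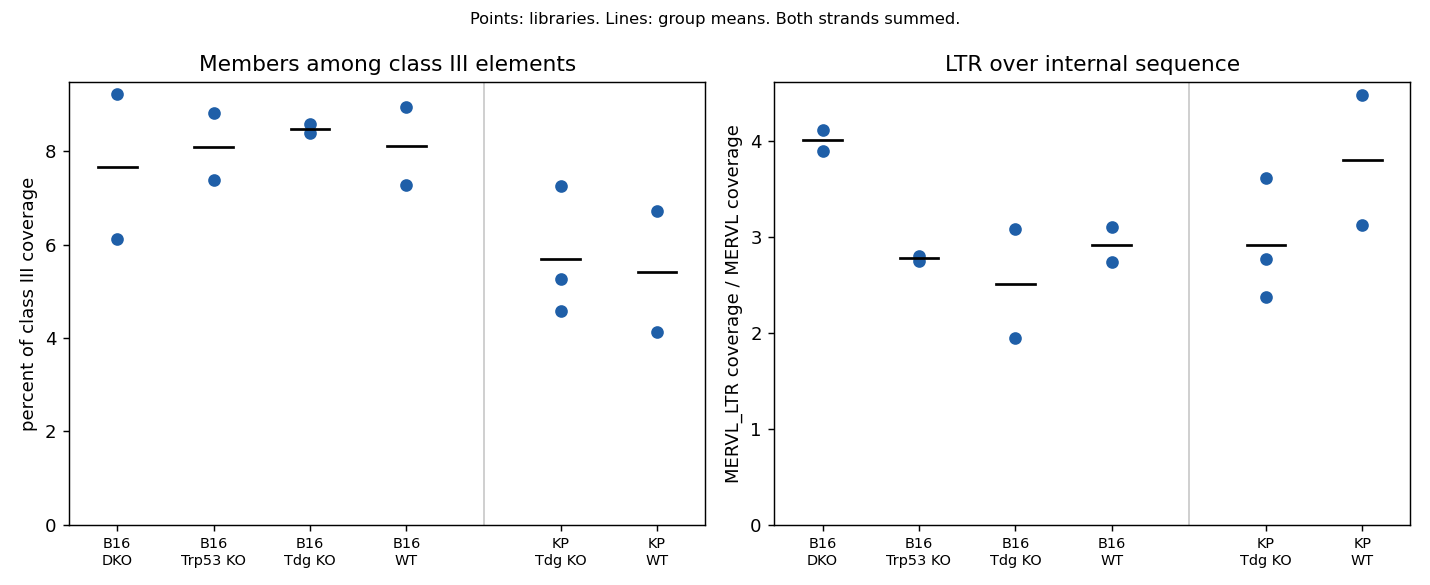
Left, share of class III coverage held by the members, in percent. Right, coverage of MERVL_LTR divided by that of MERVL. Points are libraries and lines are group means, with both strands summed. The share overlaps between genotypes of each line, and the ratio of the DKO libraries (4.12 and 3.90) lies above the other B16 libraries.

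The elements whose coverage moved most like MT2B2_LTR in sense over the 8 B16 libraries, each centred on its median, were mostly in antisense. They were the antisense strands of ERVB4_1-I_MM (Pearson r = 0.91), L1Md_F_5end (0.85), Lx3B_3end (0.85), Lx_3end (0.79) and L1VL2_5end (0.78), out of 814 features. Among the members MERVL in antisense came nearest (0.90), MERVL_LTR in sense had 0.67 and MERVL in sense 0.31. These r values are a description: the points share their libraries and the centring, and no test was made.

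Class III elements outside the members that passed without overlap included MTC in antisense, a MaLR LTR. It had 85.8 and 34.8 in DKO (mean 60.3) and 0 and 6.97 in Trp53 KO (mean 3.49). Its log2 change was 6.02 ± 1.80 (limma adjusted p = 0.047), a size that depends on the added 0.1 because Trp53 KO library 1 was at 0. ORR1B and RMER10B in antisense were at 0 in both Trp53 KO libraries and were at least 6.72-fold and 2.74-fold higher in DKO. Against Tdg KO, ORR1A_Rn_LTR in sense averaged 108.1 in DKO and 33.7 in Tdg KO (1.70 ± 0.27, limma adjusted p = 0.043). Against WT, RMER15 in sense was at least 4.51-fold higher in DKO. RLTR19A2 in sense also passed against Tdg KO and against WT, but it had no coverage in any B16 library outside DKO (mean 0.635 in DKO, under the floor) and so passed the filter only through DKO. After median-ratio scaling none of these calls held, with limma adjusted p-values of 0.062 for RMER10B, 0.083 for ORR1B, 0.15 for MTC, 0.22 for ORR1A_Rn_LTR, 0.084 for RMER15, and 0.088 against Tdg KO and 0.081 against WT for RLTR19A2. For scale, IAPEZI in sense, an active class II retrovirus, averaged 2127 ± 455 in DKO and 5250 ± 1515 in Trp53 KO (SD, n = 2 each, log2 change −1.29 ± 0.42, limma adjusted p = 0.060, and after median-ratio scaling −2.75 with limma adjusted p = 0.029), and L1MdF_IV in sense, a LINE-1, averaged 103.1 ± 2.8 in DKO and 44.5 ± 8.9 in Trp53 KO (1.22 ± 0.44, limma adjusted p = 0.071).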

How the data were processed

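The authors deposited 2 tables of strand-specific RNA sequencing, named by piPipes mean signal: coverage per base of repeat consensus sequences and piRNA loci, in sense and antisense columns (antisense with a minus sign, dropped here). Per the labels' protocols, directional libraries were made after removal of ribosomal RNA. HISAT2, DESeq2 and mm10 appear in the submitters' processing notes, without versions or roles. Mapping settings, multi-mapping and depth: not given in the sources used here. For all 388 repeats with 6 or more nonzero values, every deposited coverage was a whole multiple of 1 over a length (within 0.002 covered bases and rounding), so the signal was not scaled to library size. Exact duplicates (6) were removed. Features with mean coverage of at least 0.1 in their table (1246 in B16, 984 in KP) were fitted as log2(coverage + 0.1) with limma 3.58.1 (lmFit, eBayes with trend, R 4.3.3), all groups of a table in the fit, residual degrees of freedom 4 and 3, two-sided, Benjamini-Hochberg over all features at 0.05. For features near 0 the size of a log2 change on this scale depends on the added 0.1. It can understate a change between low values, but 1 library at 0 in a group can make it larger than the group means imply. Other scalings, pseudocounts and filters and each library left out were alternatives. Figures and permutation tests used Python 3.11.15. The scripts were tested on simulated data.

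The members and lists were chosen with earlier results of these data known. Named are every member on both strands, the 5 elements most like the best-covered member in sense, up to 3 rises and 3 falls of other class III features that passed without overlap in each comparison with calls, and IAPEZI and L1MdF_IV in sense.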

Additional observations from a re-analysis of the deposited data

How the results depend on the processing

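The count of member features called in DKO against Trp53 KO, 4 as deposited, was 0 after median centring, after quantile normalization and with only the groups compared. It was 1 after median-ratio scaling and without piRNA loci, and 2 with no filter. It was 7 of 14 with a mean coverage of at least 1 and 7 of 18 with robust eBayes. Calls over all features outside the scalings are not given here, so these counts do not set the members apart from other features. Leaving out 1 library gave 0 to 5. In DKO against Tdg KO, 1 as deposited, it was 0 after median centring, median-ratio scaling and quantile normalization, with a mean coverage of at least 1, without piRNA loci and with only the groups compared, 2 with a pseudocount of 0.01, and 0 to 2 with 1 library left out. In DKO against WT, 0 as deposited, it was 1 with a pseudocount of 0.01 and 0 to 1 with 1 library left out, and the interaction gave 0 to 2. The cause was not tested. With the replicate number as a block the counts were 2 in DKO against Trp53 KO and 0 in DKO against Tdg KO. Deviations of same-numbered libraries correlated at −0.013 to 0.18 in B16 and −0.021 to 0.092 in KP. With so few libraries per group this cannot settle whether the numbers pair the samples.

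As a log2 ratio of class III coverage the members' share was −0.0012 for Trp53 KO against WT, −0.078, −0.14 and −0.080 for DKO against Trp53 KO, Tdg KO and WT, and 0.072 in KP. As a share of repeat coverage without 7SL these were −0.38, 0.61, 0.056, 0.23 and −0.63. For the share of class III coverage, leaving out 1 library gave −0.076 to 0.22 for Tdg KO against WT and −0.24 to 0.47 in KP. This class III range was −0.40 to 0.19 for DKO against Trp53 KO, −0.47 to 0.12 for DKO against Tdg KO and −0.40 to 0.19 for DKO against WT.

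Scaling turned the direction of several log2 changes. In DKO against Trp53 KO, after median centring, median-ratio scaling and quantile normalization in turn, MERVL was at −0.87, −0.26 and −0.17 in sense and −0.72, −0.10 and −0.24 in antisense, MT2B2_LTR in antisense at −1.20, −0.61 and −0.58, MT2_Rat2 at −1.66, −1.06 and −0.96 in sense and −0.97, −0.38 and −0.35 in antisense, and L1MdF_IV in sense at −0.83, −0.23 and −0.15. Centring alone turned MERVL_LTR in sense (−0.40) and MT2B2_LTR in sense (−0.60), and MT2B in sense turned after centring (−0.11) and quantile normalization (−0.31). In DKO against WT, MT2B2_LTR in sense was at −0.69, −0.27 and −0.20, and MERVL_LTR in sense at −0.35 after centring. Centring gave −0.54 for the interaction of MT2B2_LTR in sense, and quantile normalization −0.14 for MERVL in sense in KP. For Tdg KO against WT in B16, leaving out 1 library gave −0.58 to 0.22 for MT2B2_LTR and −0.11 to 0.37 for MERVL in sense. Depth is not known, 2 or 3 libraries per group limit every test, and the smallest members rest on a few fragments.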
